A study of Gallus gallus with 14 samples.

Results

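The transcripts described here are 40 RefSeq rows of a chicken FPKM table that were lower in E14 gonads (E14G) than in E11 gonads (E11G). FPKM counts sequenced fragments relative to transcript length and library size, so levels can be set side by side between genes. A row was taken if its identifier began with NM_, its mean in the E11G libraries was at least 5 FPKM, and its lower E11G library was at least 2 times its higher E14G library. Of 42501 rows in the table, 6528 were RefSeq rows and 4285 of these passed the floor in E11G. Both limits were met by 44 rows, which is 1.03% of the 4285, and 4 of the 44 were left out by the rule. The same limits turned round gave 21 RefSeq rows that were higher in E14G. Of the 40 members, 37 had a symbol in the RefSeq gene table and 3 did not.

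The study followed germ line development in chicken embryos. Total RNA was sequenced with a strand-specific protocol from gonads of E14 embryos, gonads of E11 embryos and blastodermal cells (BC) of the early embryo, all of the JA57 broiler and with no other treatment. There were 2 libraries of each, 6 in all. Each gonad sample pooled the left gonads of several embryos, which the labels call male, and each BC sample pooled several embryos. Nothing in the labels shows whether libraries of one stage came from separate pools, so the spread between them may be technical. Small RNA lists from 8 further libraries of BC, cultured E7 primordial germ cells (E7PGC), E11G and E14G, from other chicken breeds, were used only to ask whether a member lies over a piRNA cluster. The FPKM table holds no counts and its depth is unknown.

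The left gonad of a chicken embryo holds germ cells inside cords of Sertoli cells, with steroid-making cells, vessels and stroma between them. In male embryos spermatogonia form from prospermatogonia at about this time, and genes of the pluripotent germ line are known to be shut down as germ cells mature. Retinoic acid, made by aldehyde dehydrogenases and broken down by CYP26 enzymes, governs when germ cells enter meiosis. In whole gonads, fewer cells of a type and less RNA per cell cannot be told apart.

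AMH and DMRT1 set the gonad libraries apart from BC, though not every gene of the Sertoli cell list did. AMH, the anti-Mullerian hormone of Sertoli cells, was at 3056 and 2906 FPKM in E14G and at 3797 and 4696 FPKM in E11G, against 5.33 and 4.97 FPKM in BC. DMRT1, the testis-determining factor of birds, was at 68.4 and 64.1 FPKM in E14G and at 56.3 and 50.8 FPKM in E11G, against 0.666 and 0.577 FPKM in BC. FSHR of the same list was at 14.5 and 13.8 FPKM in E14G. In E11G it was at 9.95 and 4.57 FPKM, which overlapped the 4.15 and 5.51 FPKM of BC. Library 1 of E11G stood apart from its label. The 3 RefSeq rows on chromosome W (the chromosome that only female birds carry) with a BC mean of at least 5 FPKM summed to 0 and 0.0174 FPKM in the E14G libraries, against 12.9 FPKM in E11G library 1 and 0.0302 FPKM in E11G library 2. They summed to 59.4 and 58.0 FPKM in BC. CYP19A1, the aromatase that makes estrogen in the embryonic ovary, was at 0.0165 and 0.0188 FPKM in E14G, against 115.9 FPKM in E11G library 1 and 0.0137 FPKM in E11G library 2, and listed at 0 in BC. The summed level of 3 ovary genes outside the members (CYP19A1, FOXL2 and WNT4) was 7.95 and 9.17 FPKM in E14G. It was 124 FPKM in E11G library 1, nearly all of it CYP19A1, and 4.72 FPKM in E11G library 2. FOXL2 was at 0.0869 and 0.554 FPKM in E14G, against 2.45 FPKM in E11G library 1 and 0.188 FPKM in library 2. WNT4 went the other way, with 7.85 and 8.60 FPKM in E14G, against 5.57 and 4.52 FPKM in E11G. E11G library 1 was also higher in the sum of the 3 mesonephros genes tested (3.28 and 4.43 FPKM in E14G, 11.4 FPKM in E11G library 1, 3.37 FPKM in library 2). The same held for the sum of the 6 adrenal and neural crest genes (10.01 and 13.2 FPKM in E14G, 26.7 FPKM in E11G library 1, 9.54 FPKM in library 2). The part of these markers in the results was not tested. Some of the results below are also given without that library, and the others include it.

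Library 1 set the size of the difference for only some of the members. Over all 40, the E11G libraries were more than 1.5-fold apart in 9, of which 8 were higher in library 1, while 82 of the 4285 RefSeq rows over the floor (1.91%) were that far apart. When the rule was applied with E11G library 2 alone, 37 of the 40 members still met it, and the 3 that did not were SST7, HSD17B1 and KLHL14. With library 1 alone 39 members still met it, but 77 rows did so in all. In library 2 the level of these 3 genes was under 5 FPKM, and the level of LOC769139 was under 5 FPKM in library 1. Only this floor could remove a member, since the rule had already held each E11G library to the 2-fold limit. The counts that still met the rule therefore do not show how far the differences rest on library 1.

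**Figure D1:**
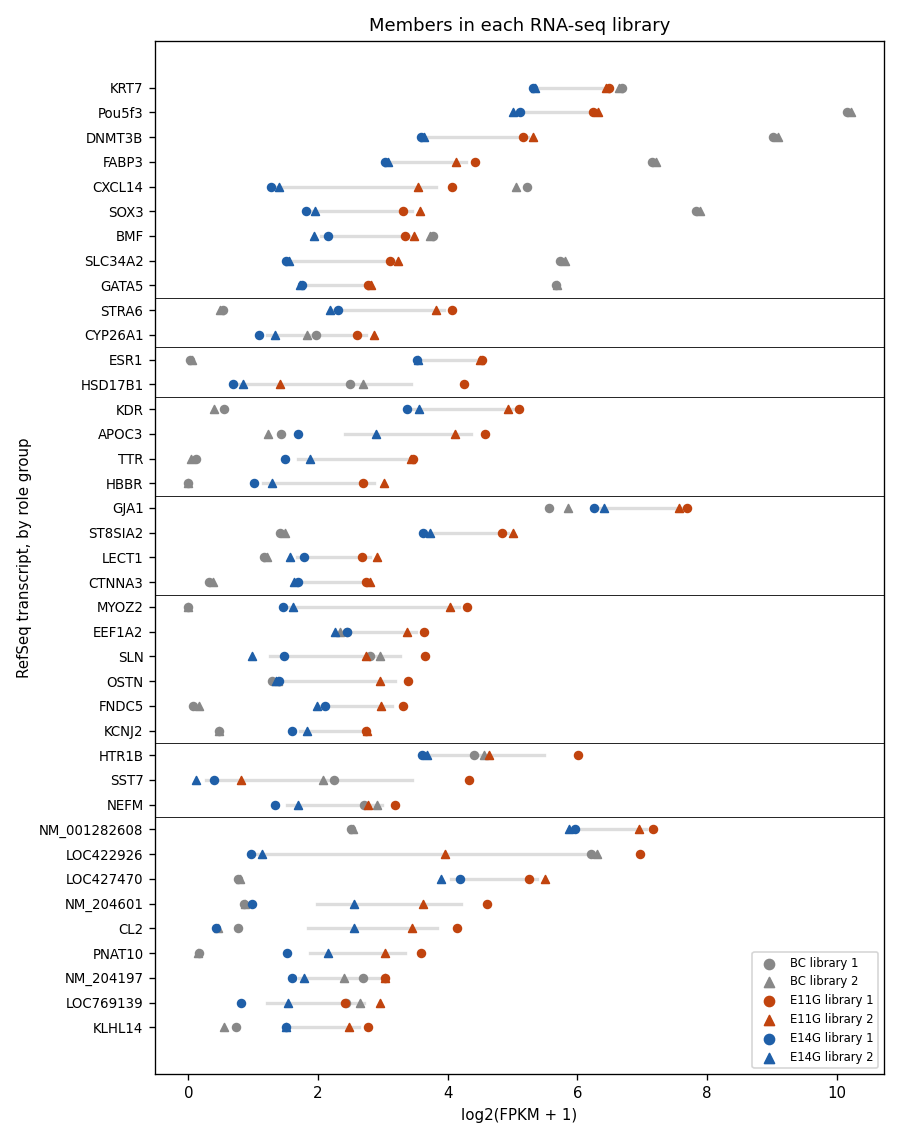
The level of the members described in the text in each library, as log2(FPKM + 1), with members grouped by role and ordered by their E11G mean within a group; circles are library 1, triangles library 2, and the grey bar joins the E14G and E11G means. The E14G points lie left of the E11G points in every row, as the rule requires, while the BC points lie on either side, and wide gaps between the E11G libraries are seen for LOC422926, SST7, HSD17B1 and HTR1B.

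The difference between the gonad stages chose the members, so the values that follow are a description. The ratio of the E11G mean to the E14G mean had a median of 3.35 and ran from 2.06 to 64.3. E14G means had a median of 2.64 FPKM, against 10.2 FPKM in E11G, where means ran from 5.20 to 197 FPKM. In E14G, 23 members had a mean under 3 FPKM. A limma model on log2(FPKM + 1) over the 22368 rows with at least 1 FPKM in some library called 858 rows at an adjusted p under 0.05 (3.84%), of which 518 were lower in E14G (2.32%) and 340 higher (1.52%). All 40 members were among the rows tested, 31 of them were called lower and none higher. The median difference of the members was -1.49 on the log2 scale, against 0.01 over all rows tested. These calls lean on the BC libraries for their estimate of spread, since limma called only 2 rows and no member when the 4 gonad libraries were fitted alone, and without E11G library 1 it called 65 rows and 7 members. Leaving out E11G library 2 gave 224 rows and 17 members, E14G library 1 gave 274 rows and 16 members, and E14G library 2 gave 22 rows and no member.

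The 2-fold limit lay in a continuous range of values. Just inside it were the row NM_001282608, which has no symbol, the estrogen receptor gene ESR1 and the serotonin receptor gene HTR1B, whose lower E11G library was 2.0003, 2.02 and 2.04 times the higher E14G library. Just outside were EXFABP at 1.96 times, a row with no symbol at 1.94 times and KRT24 at 1.89 times. EXFABP measured 10.2 and 10.9 FPKM in E14G, against 21.4 and 26.6 FPKM in E11G.

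Among the 40 members, 9 were higher in both BC libraries than in both E11G libraries, and their level was therefore ordered BC, E11G, E14G. This was 22.5% of the members, against 56.1% of the 4285 RefSeq rows over the floor. The 9 were Pou5f3, SOX3, DNMT3B, GATA5, SLC34A2, FABP3, CXCL14, KRT7 (whose difference between E11G and BC vanished when libraries were scaled to their medians) and BMF (which then kept its direction but lost its call), and their fall between the gonad stages ran from 2.23-fold to 8.65-fold with a median of 3.08-fold.

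Pou5f3, the chicken pluripotency factor of the POU5 family, lies on chromosome 17 (galGal5, 950256 to 953061). It was at 33.7 and 31.1 FPKM in E14G, against 74.5 and 78.9 FPKM in E11G, and at 1140 and 1190 FPKM in BC. A second RefSeq row at the same place measured 2.32 and 0.502 FPKM in E14G, against 3.76 and 2.94 FPKM in E11G, so how the fragments were shared between the rows is uncertain. SOX3, a SoxB1 transcription factor of early ectoderm and neural precursors, was at 2.51 and 2.87 FPKM in E14G, against 8.97 and 10.8 FPKM in E11G. Its BC level of 227 and 236 FPKM was 23.4 times the E11G mean, the highest such ratio among the members.

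DNMT3B, a de novo DNA methyltransferase, was at 11.04 and 11.4 FPKM in E14G, against 34.7 and 38.8 FPKM in E11G, and at 518 and 545 FPKM in BC. Its fall was 3.28-fold, where a separation of the gonad stages was required by the rule. GATA5, a zinc finger factor of heart and endoderm, was at 2.36 and 2.31 FPKM in E14G, against 5.80 and 6.04 FPKM in E11G, with 50.0 and 50.6 FPKM in BC. SLC34A2, a sodium-phosphate cotransporter of epithelia, was at 1.84 and 1.92 FPKM in E14G, against 7.66 and 8.46 FPKM in E11G, with 52.4 and 55.0 FPKM in BC. For both genes the libraries of a stage lay close together, and both BC libraries lay above both E11G libraries.

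FABP3, which carries fatty acids in the cytosol of muscle, was at 7.16 and 7.46 FPKM in E14G, against 20.5 and 16.5 FPKM in E11G. In BC it was at 142 and 148 FPKM, which is 7.83 times the E11G mean. CXCL14, a chemokine, fell the most of these 9, with 1.41 and 1.64 FPKM in E14G against 15.7 and 10.7 FPKM in E11G. KRT7, a keratin of simple epithelia, was at 38.8 and 39.6 FPKM in E14G, against 89.0 and 85.9 FPKM in E11G, and its BC level of 102 and 98.6 FPKM was only 1.15 times that of E11G. BMF, a BH3-only protein that promotes cell death, was at 3.43 and 2.82 FPKM in E14G, against 9.12 and 10.1 FPKM in E11G. Its BC level was 12.7 and 12.2 FPKM.

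Of the other germ cell genes of the list, 1 was left out by the rule, and limma called none of the remaining 4 between the gonad stages. DDX4, the vasa helicase, was at 26.2 and 22.7 FPKM in E14G, against 22.6 and 17.6 FPKM in E11G. DAZL, an RNA-binding protein of germ cells, was at 56.2 and 48.7 FPKM in E14G, against 62.7 and 58.3 FPKM in E11G. PIWIL1, a PIWI protein that binds piRNAs, was at 27.98 and 26.6 FPKM in E14G, against 21.8 and 13.5 FPKM in E11G. The E14G libraries of DDX4 and PIWIL1 lay above those of E11G, DDX4 only just, and those of DAZL lay below. KIT, a receptor kinase of germ cells, was at 9.64 and 9.24 FPKM in E14G, against 12.8 and 13.1 FPKM in E11G. Of these 4 genes limma called 0 in either direction, with 1 higher and 1 lower at an unadjusted p under 0.05. Over all 22368 rows, 5241 were under that unadjusted limit in either direction. The median difference of the 4 genes was 0.03 on the log2 scale, against 0.01 over all rows.

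The retinoid group held 2 members, 1 for uptake and 1 for breakdown. STRA6, the cell surface receptor that takes up retinol from its plasma carrier, lies on chromosome 10 (galGal5, 2519525 to 2530206). It was at 3.95 and 3.56 FPKM in E14G, against 15.8 and 13.1 FPKM in E11G, a fall of 3.85-fold, and at 0.445 and 0.400 FPKM in BC. Another row at the place of STRA6 measured 5.48 and 6.90 FPKM in BC, against 0.0807 and 0.351 FPKM in E11G. How fragments were shared between these rows is unknown, so the BC level of STRA6 is uncertain. CYP26A1, which breaks down retinoic acid, lies on chromosome 6 (galGal5, 20556209 to 20558838). It was at 1.12 and 1.52 FPKM in E14G, against 5.08 and 6.29 FPKM in E11G, a fall of 4.30-fold. In BC it was at 2.93 and 2.55 FPKM, which lies between the gonad stages.

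Of 7 other retinoid genes tested, 1 was called lower in E14G and 0 higher, with a median difference of -0.20 on the log2 scale, against 0.01 over all rows. The called gene was ALDH1A2, an enzyme that makes retinoic acid. It was at 70.9 and 62.5 FPKM in E14G, against 112 and 122 FPKM in E11G, and its difference of -0.81 on the log2 scale (SE 0.093) had an adjusted p of 0.024 by limma. Without E11G library 1 the difference was -0.87 with an adjusted p of 0.0833 by limma. RARB, a retinoic acid receptor, was at 12.8 and 11.4 FPKM in E14G, against 17.1 and 17.9 FPKM in E11G, and was not called.

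**Figure D2:**
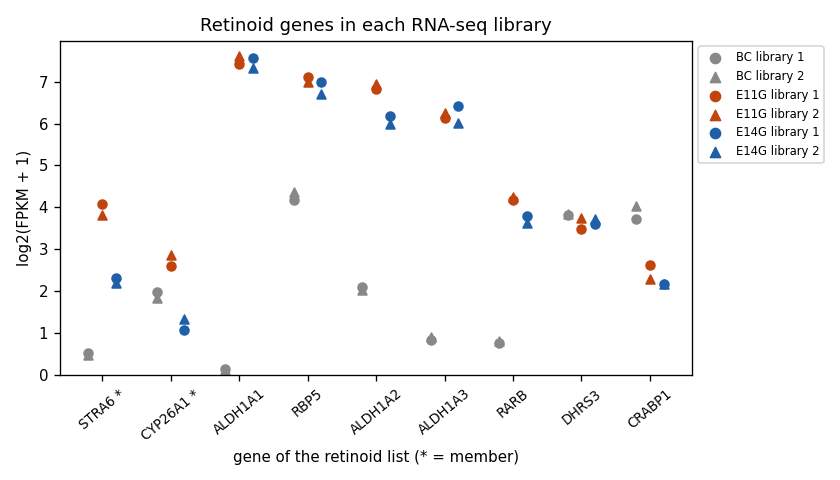
The level of the 2 retinoid members and of the 7 other retinoid genes in each library, as log2(FPKM + 1), in the order BC, E11G, E14G for each gene; circles are library 1 and triangles library 2. The E14G points lie below the E11G points for STRA6, CYP26A1, ALDH1A2, RARB, RBP5 and CRABP1, while those of ALDH1A1, ALDH1A3 and DHRS3 overlap.

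Genes of the estrogen pathway gave ESR1 and HSD17B1. ESR1, the estrogen receptor alpha, lies on chromosome 3 (galGal5, 49187158 to 49301908). It was at 10.5 and 10.7 FPKM in E14G, against 22.1 and 21.6 FPKM in E11G. Its fall of 2.06-fold was the smallest of the 40 ratios of means, yet the libraries of each stage lay within a few percent of each other. The level in BC was 0.0132 and 0.0420 FPKM.

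HSD17B1, a 17-beta-hydroxysteroid dehydrogenase that makes estradiol, depended on the E11G library. It was at 0.606 and 0.797 FPKM in E14G, against 18.0 FPKM in E11G library 1 and 1.68 FPKM in E11G library 2. The limma difference was -2.07 on the log2 scale with library 1 and -0.66 without it. Library 1 is the one that also held the CYP19A1 and chromosome W values given above. Of 9 other steroid synthesis genes, limma called 0 in either direction, and their median difference was 0.18 on the log2 scale, against 0.01 over all rows. At an unadjusted p under 0.05, 3 of the 9 were higher and 0 lower, where 5241 of all 22368 rows passed in either direction. The 9 include CYP19A1, and library 1 of E11G was also above library 2 for CYP17A1 (217 and 110 FPKM) and STAR (26.1 and 8.87 FPKM). Without library 1 the log2 difference moved from 0.55 to 1.04 for CYP17A1 and from 0.18 to 0.90 for STAR. That of HSD3B1, at 64.4 and 61.8 FPKM in E11G, moved only from 0.22 to 0.25.

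Of 27 genes outside the members in a list of homeobox and other transcription factors, 1 was called higher in E14G and 3 lower by limma. Over all 22368 rows, 1.52% were called higher and 2.32% lower. The median of the 27 was -0.12 on the log2 scale, against 0.01 over all rows. At an unadjusted p under 0.05 by limma, 3 of the 27 were higher and 8 lower, where 5241 of all rows passed in either direction. LHX9, a factor of gonad formation, had a difference of -0.74 on the log2 scale (SE 0.081) with an adjusted p of 0.0236 by limma. Without E11G library 1 its adjusted p was 0.0909 by limma, and only MSX1 (-1.55 on the log2 scale, adjusted p = 0.0428 by limma) of the 27 was called, in the lower direction.

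**Figure D3:**
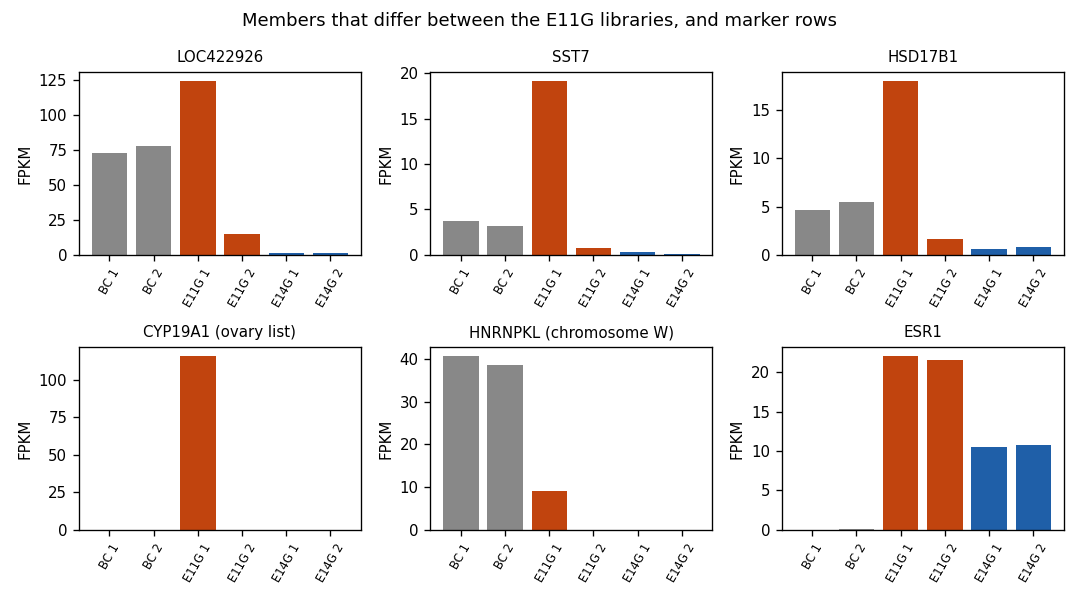
FPKM in each library, as bars from 0, for the 3 members with the widest gap between the E11G libraries, for CYP19A1 and the chromosome W gene HNRNPKL, and for ESR1; each panel has its own scale and there is 1 bar per library. In library 1 of E11G, LOC422926, SST7, HSD17B1 and CYP19A1 stand well above library 2, while the ESR1 bars of both E11G libraries are alike at 22.1 and 21.6 FPKM.

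A vessel and plasma group held KDR, TTR, APOC3 and HBBR, whose falls ran from 3.11-fold to 5.10-fold. KDR, the main receptor for vascular endothelial growth factor, lies on chromosome 4 (galGal5, 65598123 to 65625791). It was at 9.40 and 10.8 FPKM in E14G, against 33.2 and 29.7 FPKM in E11G, and at 0.460 and 0.310 FPKM in BC. None of the other 5 endothelial genes tested was called by limma. CDH5, the cadherin of endothelial junctions, was at 31.2 and 28.1 FPKM in E14G, against 38.8 and 41.2 FPKM in E11G, and VWF, the von Willebrand factor, was at 5.21 and 5.02 FPKM in E14G, against 5.21 and 5.15 FPKM in E11G. The libraries of CDH5 did not overlap and those of VWF did. The 5 had a median difference of -0.20 on the log2 scale, against 0.01 over all rows, and their summed level was 112 and 102 FPKM in E14G, against 125 and 131 FPKM in E11G. At an unadjusted p under 0.05, 2 of the 5 were lower and 0 higher, where 5241 of all 22368 rows passed in either direction.

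TTR, the plasma carrier of thyroid hormone and of retinol-binding protein, was at 1.82 and 2.66 FPKM in E14G, against 10.1 and 9.84 FPKM in E11G, with 0.0872 and 0.0318 FPKM in BC. Another row at the place of TTR measured 0.445 and 0.503 FPKM in BC, against 0.0675 and 0.0832 FPKM in E11G, so the BC level of TTR is uncertain. APOC3, an apolipoprotein that liver cells secrete, was at 2.23 and 6.47 FPKM in E14G, against 23.0 and 16.3 FPKM in E11G. Its E14G libraries were further apart than those of most members. HBBR, a globin of the beta family, was at 1.013 and 1.45 FPKM in E14G, against 5.50 and 7.06 FPKM in E11G, and listed at 0 in BC. Fragments can be split between close relatives within the beta family, so its level is uncertain.

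The plasma protein list held 6 other genes, of which limma called 1 lower and 0 higher, with a median of -0.59 on the log2 scale, against 0.01 over all rows. ALB, serum albumin, was at 1.62 and 1.60 FPKM in E14G, against 4.53 and 3.28 FPKM in E11G (log2 difference -0.90, adjusted p = 0.0443 by limma, and 0.0852 without E11G library 1). APOB, the apolipoprotein of liver lipoproteins, was at 0.792 and 2.43 FPKM in E14G, against 7.03 and 3.63 FPKM in E11G, and was not called. The abundant APOA1 was at 817 and 961 FPKM in E14G, against 818 and 739 FPKM in E11G. The 14 erythroid rows, in which SLC4A1 stands more than once, summed to 2398 and 2855 FPKM in E14G, against 1869 and 2032 FPKM in E11G. Of these rows 1 was called higher and 0 lower. The called row was ALAD, with a difference of 0.60 on the log2 scale, and 0.58 without E11G library 1. The part of blood or of liver RNA in the plasma members was not tested.

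Genes of cell contact and matrix gave 4 members, whose falls lay between 2.47-fold and 2.69-fold. GJA1, the gap junction protein connexin 43, was the most abundant member and lies on chromosome 3 (galGal5, 61930610 to 61938109). It was at 75.9 and 83.9 FPKM in E14G, against 205 and 189 FPKM in E11G, and at 46.3 and 56.8 FPKM in BC. ST8SIA2, which adds polysialic acid to the neural cell adhesion molecule, was at 11.3 and 12.2 FPKM in E14G, against 27.5 and 31.2 FPKM in E11G. CTNNA3, an alpha-catenin of heart muscle junctions, was at 2.22 and 2.11 FPKM in E14G, against 5.70 and 5.94 FPKM in E11G. LECT1, chondromodulin, which in cartilage keeps vessels out, was at 2.46 and 1.95 FPKM in E14G, against 5.38 and 6.50 FPKM in E11G. In all 4 genes both BC libraries were below both E14G libraries.

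A further 6 members are best known from muscle or other excitable cells, and FABP3 belongs with them by function. MYOZ2, a protein of the sarcomere Z-disc, had the largest fall after the 3 genes whose E11G libraries were over 5-fold apart. It was at 1.75 and 2.05 FPKM in E14G, against 18.6 and 15.4 FPKM in E11G, a fall of 8.95-fold, and listed at 0 in BC. SLN, sarcolipin, which inhibits the calcium pump of the sarcoplasmic reticulum, was at 1.79 and 0.980 FPKM in E14G, against 11.6 and 5.71 FPKM in E11G. OSTN, a secreted peptide of muscle and bone, was at 1.64 and 1.54 FPKM in E14G, against 9.45 and 6.77 FPKM in E11G. For SLN the E11G libraries were 2.02-fold apart, and for OSTN 1.40-fold.

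FNDC5, the precursor of irisin, was at 3.31 and 2.95 FPKM in E14G, against 8.88 and 6.80 FPKM in E11G. KCNJ2, an inward rectifier potassium channel, was at 2.02 and 2.55 FPKM in E14G, against 5.67 and 5.73 FPKM in E11G. EEF1A2, the translation elongation factor form of muscle and neurons, was at 4.45 and 3.81 FPKM in E14G, against 11.5 and 9.33 FPKM in E11G. Its close relative EEF1A1 shares much of its sequence, so its level is uncertain. The muscle list had 8 rows tested, none of them a member, of which 2 were called higher in E14G and 0 lower by limma, with a median of 0.13 on the log2 scale. The 2 were the smooth muscle genes MYH11, at 2.50 and 3.35 FPKM in E14G against 1.03 and 0.985 FPKM in E11G, and TAGLN, at 11.8 and 22.1 FPKM in E14G against 2.62 and 3.22 FPKM in E11G. The 8 rows, mostly through ACTA2, summed to 362 and 391 FPKM in E14G, against 331 and 325 FPKM in E11G. In the fit of all 6 libraries, 3 of the 8 were higher and 1 lower at an unadjusted p under 0.05. In that fit 5241 of all 22368 rows passed this unadjusted limit in either direction. Without E11G library 1, 0 of the 8 were called, with 2 higher and 1 lower at an unadjusted p under 0.05.

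Neural and hormone genes gave HTR1B, SST7 and NEFM. HTR1B, the serotonin 1B receptor, was at 11.2 and 11.8 FPKM in E14G, against 63.5 FPKM in E11G library 1 and 23.99 FPKM in library 2, with 20.1 and 22.6 FPKM in BC. SST7, which the RefSeq table gives as a second somatostatin precursor, was at 0.318 and 0.0844 FPKM in E14G, against 19.1 FPKM in E11G library 1 and 0.751 FPKM in library 2. It had the widest gap between the E11G libraries of all members, 25.5-fold, and its limma difference was -2.31 on the log2 scale with library 1 and -0.55 without it. NEFM, the medium neurofilament protein, was at 1.53 and 2.21 FPKM in E14G, against 8.11 and 5.82 FPKM in E11G, and BC overlapped E11G at 5.53 and 6.53 FPKM.

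The remaining 9 members have no shared role. LOC422926, a protein-coding gene on chromosome 4 (galGal5, 86477614 to 86486827), had the largest fall of all. It was at 0.958 and 1.20 FPKM in E14G, against 124 FPKM in E11G library 1 and 14.6 FPKM in library 2, with 73.0 and 77.7 FPKM in BC. Its 2 E11G libraries were 8.52-fold apart, but library 2 alone was still 12.1 times the higher E14G library.

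LOC427470, the only member on chromosome Z, was at 17.2 and 13.9 FPKM in E14G, against 37.3 and 44.1 FPKM in E11G. PNAT10, an arylamine N-acetyltransferase, was at 1.87 and 3.47 FPKM in E14G, against 11.04 and 7.20 FPKM in E11G. KLHL14, a Kelch-like protein, was at 1.84 and 1.83 FPKM in E14G, against 5.84 and 4.55 FPKM in E11G. In all 3 the separation of the stages follows from the rule, and the E11G libraries of PNAT10 were 1.53-fold apart.

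CL2 was at 0.339 and 4.87 FPKM in E14G, against 16.7 and 9.92 FPKM in E11G, so its fall rested largely on E14G library 1. LOC769139 was at 0.763 and 1.89 FPKM in E14G, against 4.33 and 6.75 FPKM in E11G, and its BC level overlapped that of E11G. The row NM_001282608, picked out after its values were seen because it was the second most abundant member, was at 61.3 and 57.6 FPKM in E14G, against 143 and 123 FPKM in E11G. The other 2 rows without a symbol fell by 5.91-fold and 3.20-fold. The first of them was at 0.975 and 4.90 FPKM in E14G, against 23.5 and 11.2 FPKM in E11G, so its libraries lay apart in both stages.

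The BC libraries took no part in choosing the members, although the gonad libraries set against them did, since every member had to be high in E11G and low in E14G. The median ratio of BC to E11G was 0.306 over the members, against 1.26 over the 4285 RefSeq rows over the floor. Both BC libraries lay below both E14G libraries in 18 members (45%), against 38.1% of those 4285 rows, and 14 members had a BC mean under 1 FPKM. BC lay between the gonad stages in 3 members and overlapped a gonad stage in 10. For these counts, and for BC means under 1 FPKM, the share over the 4285 rows was not taken. They therefore do not show whether the members differ from other rows.

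Between E11G and BC, limma called 78.3% of all 22368 rows, and between E14G and BC 76.7%. Against BC, it called 24 members higher in E11G, where the share over all rows was 38%, and 9 members lower in E11G, where it was 40.4%. The 7 that were not called were NEFM, LOC422926, HTR1B, LOC769139, SLN, SST7 and HSD17B1. Without E11G library 1, SST7, HSD17B1, SLN and NEFM lay below BC, by -1.35, -1.17, -0.14 and -0.04 on the log2 scale. LOC422926, already below BC at -0.79 with both libraries, then moved to -2.29. The median difference of the members was 1.41 on the log2 scale, against -0.03 over all rows tested. In E14G, 16 members were called higher than in BC (37.3% over all rows) and 15 lower (39.4% over all rows), with a median of -0.0018, against -0.02 over all rows tested. The 2 comparisons share the BC libraries. Members had to reach a mean of 5 FPKM in E11G, while a row tested needed only 1 FPKM in some library. The shares and medians over all rows are therefore not a matched background for the members. The limma calls were not counted over the 4285 RefSeq rows over the floor.

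The members with the lowest BC level relative to E11G and with a symbol were MYOZ2 and HBBR, listed at 0 in both BC libraries, then ESR1, TTR and FNDC5. ESR1 was 4.47 ± 0.081 higher in E11G than in BC on the log2(FPKM + 1) scale (SE, limma), and 3.50 ± 0.081 higher in E14G than in BC. KDR was 4.55 ± 0.12 higher in E11G than in BC and 3.001 ± 0.12 higher in E14G than in BC. These genes were thus above BC in both gonad stages. The members with the highest BC level relative to E11G were SOX3, Pou5f3, DNMT3B, GATA5 and FABP3. The SOX3 difference was -4.42 ± 0.11 in E11G against BC and -5.98 ± 0.11 in E14G against BC. Scaling each library to its median closed a gap of 0.20 between the E11G and BC medians. It left 7 members called lower in E11G without KRT7 and BMF (-0.34, and -0.15 after scaling). The KRT7 difference of -0.20 was put at 0.0004, so the direction of KRT7 against BC is not settled.

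**Figure D4:**
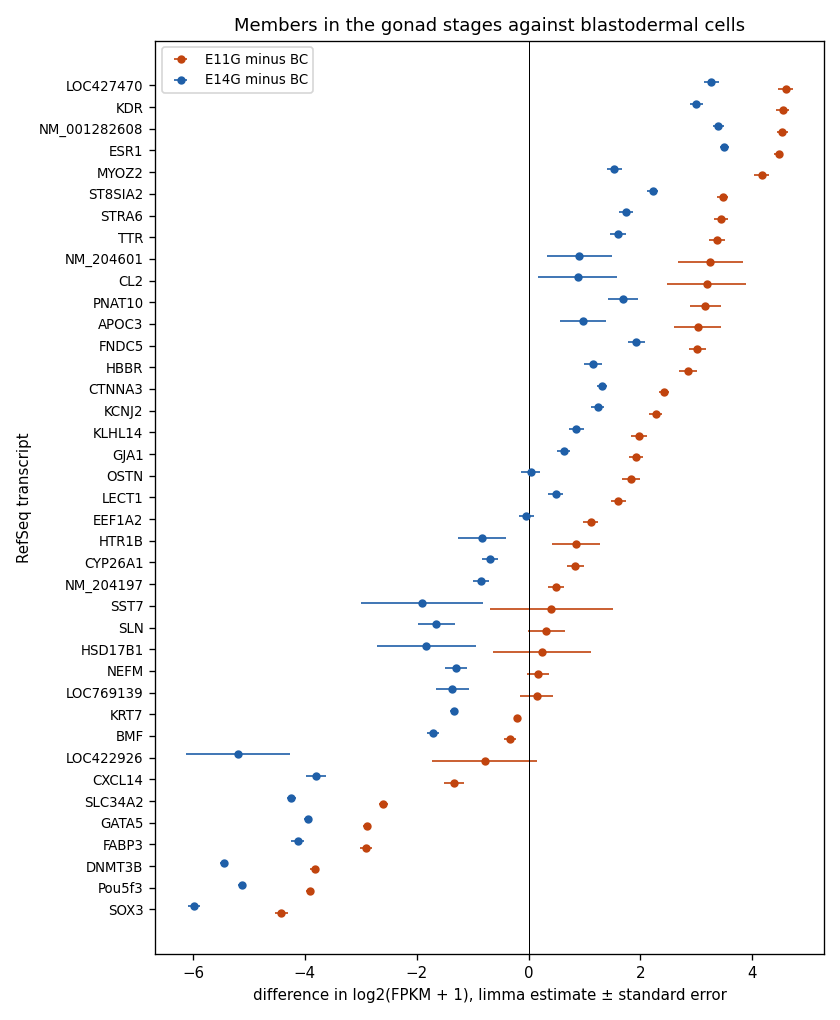
The limma difference of E11G from BC (red) and of E14G from BC (blue) for each member described in the text, on the log2(FPKM + 1) scale, with bars of 1 standard error, ordered by the E11G difference. Differences in E11G run from -4.42 for SOX3 to 4.60 for LOC427470, and the wide bars belong to SST7, LOC422926, HSD17B1 and CL2, whose libraries of 1 stage are far apart.

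The share of members over a piRNA cluster was close to that of other RefSeq rows. The clusters called in each small RNA library were merged into 4034 loci, and 2 of the 40 members (5%) overlapped one, against 3.97% of the 4285 RefSeq rows over the floor. LOC422926 overlapped a bidirectional locus on chromosome 4 (galGal5, 86482479 to 86488306) that was called in both BC libraries at 295 and 276 RPM (reads shared over their genomic hits and scaled to the mapped reads), and in no E7PGC or gonad library. CTNNA3 held a locus on chromosome 6 (galGal5, 7052888 to 7058745) called only in BC library 1, at 14.2 RPM. A list without a call does not show that there are no piRNAs, since it holds only clusters that passed the caller's limits. By the read numbers of the study, 1 small RNA library of each gonad stage was also much shallower than the other.

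The pathway lists that held no member are given by their counts, over the RefSeq rows tested and in the same limma fit. Over all 22368 rows of that fit, 1.52% were called higher and 2.32% lower, with a median of 0.01 on the log2 scale. BIRC5 in the cell cycle list, WNT3A in the WNT list and GLI2 in the hedgehog list each filled more than 1 row. Of 22 cell cycle rows, 2 were higher in E14G and 0 lower, with a median of 0.43 on the log2 scale. Of 22 extracellular matrix genes, 3 were higher and 0 lower, with a median of 0.18. Of 23 genes of TGF-beta and BMP signalling, 0 were higher and 5 lower, with a median of -0.23, and TGFB2, a ligand, was among the lower ones (-0.50, SE 0.082, adjusted p = 0.0450 by limma). Of 22 WNT rows, 3 were higher and 3 lower, with a median of 0.0049.

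Of 7 insulin-like growth factor genes, 3 were higher and 0 lower, with a median of 0.64, and IGFBP2, a binding protein, was among them (1.002, SE 0.13, adjusted p = 0.0293 by limma). Of 6 hedgehog rows, 2 were higher and 0 lower, with a median of 0.37. Of 9 sterol synthesis genes and 7 macrophage genes, 0 were called in either direction. Without E11G library 1 the calls in these lists came to 1 higher WNT gene, and in the gonad libraries alone to 0. At an unadjusted p under 0.05, the fit of all 6 libraries gave 15 higher and 3 lower cell cycle rows, and 2 higher and 10 lower TGF-beta and BMP genes. It also gave 6 higher and 0 lower sterol synthesis genes, and 1 higher and 0 lower macrophage genes. Extracellular matrix genes came to 10 higher and 2 lower, and WNT rows to 5 higher and 4 lower. Insulin-like growth factor genes came to 4 higher and 1 lower, and hedgehog rows to 3 higher and 0 lower. Of all 22368 rows, 5241 were under that unadjusted limit in either direction.

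The members lay on 21 chromosomes, with 7 on chromosome 4 and 1 on chromosome Z, where 178 of the 4285 RefSeq rows over the floor (4.15%) lay. The span of a member from start to end in galGal5 had a median of 8029 bases and ran from 715 bases for APOC3 to 436566 bases for CTNNA3. Another row of the table shared the place of 5 members, which were Pou5f3, CTNNA3, STRA6, TTR and EEF1A2.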

How the data were processed

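Total RNA libraries were made by the authors with a strand-specific kit, mapped with TopHat2 to galGal5, assembled with Cufflinks 2.2.1 and normalised together by Cuffnorm, and the FPKM values the authors deposited were used as given. The deposited cluster lists came from oxidised small RNA reads run through proTRAC for each library alone, and their other values, reads shared over genomic hits (RPM), are the authors' own. Depth is unknown for the FPKM table. The study reports read numbers for the small RNA libraries, and 1 library of each gonad stage had far fewer reads than the other. The members and the gene lists were chosen with earlier results of these data known. Rows with at least 1 FPKM in at least 1 of 6 libraries entered limma (version 3.58.1, R 4.3.3) as log2(FPKM + 1) with a trend, and p-values were adjusted over all 22368 rows by the Benjamini-Hochberg method at 0.05. A fold on this scale understates the change of low genes. The fit for E14G against E11G was also run on simulated data of 22368 rows with known changes. Those changes were put only into E14G, with BC and E11G alike, unlike the real libraries. Its outcome is not given here, and nothing is drawn from it. Ratios of means in the text are of FPKM without a pseudocount. Overlap with a piRNA locus needed at least 1 base. Alternatives were a pseudocount of 0.1, no filter, a filter of 5 FPKM, centring on library medians, gonad libraries alone and leaving out each library.

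Genes named in the text were those members with a symbol that were among the most abundant in E11G, had the largest falls, stood in a fixed list, had the highest or lowest BC level relative to E11G, stood next to the 2-fold limit or lay over a piRNA locus. The other members with a symbol were named after their values were seen, and so was their grouping by role. The values of 1 member are not reported here, although it stays in the counts. Symbols were matched by accession in the RefSeq table of GRCg7b, which gave no coordinates here. Of 6528 RefSeq rows, 6109 matched. Sequences of the members and their promoters were not used here.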

Additional observations from a re-analysis of the deposited data

How the results depend on the processing

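The count of rows called between E14G and E11G was the least stable result. It was 858, and became 408 with no filter, 497 with a filter of 5 FPKM and 2 with the gonad libraries alone, and ran from 22 to 274 with 1 gonad library left out. Members called lower were 31, 16 with no filter and 0 in the gonad libraries alone, and ran from 0 to 17 with 1 gonad library left out. The rule used the E11G and E14G values, so these member counts are only a description. The filter of 5 FPKM tested fewer rows and gave 11384 calls for E11G against BC and 11145 for E14G against BC. The member rule gave 84 rows at 1.5-fold, 12 at 3-fold, 70 with a floor of 2 FPKM, 20 with a floor of 10 FPKM and from 43 to 77 with 1 gonad library left out. Asking for loci called in both libraries of a stage left 1 member over a piRNA locus.

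Single members changed direction against BC, on the log2 scale. For E11G against BC, the values with 1 library left out ran for NEFM from -0.0396 (without E11G library 1) to 0.378, for SLN from -0.1385 (without E11G library 1) to 0.765, for SST7 from -1.3523 (without E11G library 1) to 2.1701, for HSD17B1 from -1.1715 (without E11G library 1) to 1.6565, for LOC422926 from -2.2911 to 0.7159 (without E11G library 2) and for LOC769139 from -0.127 (without E11G library 2) to 0.4117. For E14G against BC, they ran for CL2 from -0.189 (without E14G library 2) to 1.9427, for EEF1A2 from -0.1287 to 0.0509 (without E14G library 2, and 0.0202 without BC library 1) and for OSTN from -0.0122 (without BC library 1) to 0.0826. Median centring took EEF1A2 to 0.0746, and KRT7 in E11G against BC to 0.0004. The cause was not tested. Centring moved differences by up to -0.06 for E14G against E11G, 0.20 for E11G against BC and 0.14 for E14G against BC. No paired analysis was possible because the RNA libraries carry no shared replicate number of known origin and no member lay over a piRNA cluster called in a gonad library, so the planned test of cluster levels was not run.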
